A study of Mus musculus with 12 samples.

Results

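The comparison described here is the effect of R-Roscovitine in cultures, labelled as motoneurons, that lack mouse Smn1. It uses 6 of the series' 12 libraries, chosen by their labels alone: 3 libraries from Smn-/-;SMN2 cultures treated with 0.5 µM R-Roscovitine and 3 from untreated cultures of the same genotype. Treated and untreated libraries were paired by their replicate numbers, 1 to 3. The libraries come from primary mouse cultures of strain FVB, and every group carries the human SMN2 transgene. The other 6 libraries, treated and untreated Smn+/+;SMN2 cultures, are called control cultures and enter the fit to share its estimate of the spread. The labels give neither the sex, age and number of embryos nor whether replicates are separate cultures. The p-values therefore speak only of the spread among these 6 pairs of libraries, and that spread may be partly technical.

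Survival motor neuron protein, the product of Smn1, helps to build the snRNP particles that splice messenger RNA, and its shortage causes spinal muscular atrophy, in which motoneurons and their terminals fail. The human gene SMN2 yields some functional protein and lets mice without Smn1 be born. R-Roscovitine inhibits cyclin-dependent kinases, among them CDK5, which is active in neurons, CDK1 and CDK2, which drive the cell cycle, and CDK7 and CDK9, which act on RNA polymerase II. It also prolongs the opening of the voltage-gated calcium channels that start transmitter release at nerve terminals. The comparison asks which transcripts differ when Smn-null cultures have received the compound.

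Transcript levels are given as deposited, in FPKM (fragments per kilobase of transcript, scaled to the number of mapped fragments). Of the low values of loci of 200 to 3000 bases, 37.04 to 39.17% in the Smn-null libraries lay within 0.01 reads of a whole number of reads at the best step size. By that step the depth was estimated at 19.51 to 25.21 M reads. Genes with at least 1 FPKM in at least 3 of the 12 libraries, 14982 in all, were tested. Differences are treated minus untreated on the scale of log2(scaled FPKM + 1), which understates the change of low genes. They are given with the standard error (SE) of limma's paired fit. Smn1 itself read 6.11, 7.19 and 8.58 FPKM in untreated and 6.82, 5.04 and 7.35 FPKM in treated Smn-null libraries. The groups overlapped (exact two-sided permutation test on FPKM, which ignores the pairing, p = 0.5). The smallest p that this test allows with 3 libraries against 3 is 0.1. In the paired fit Smn1 differed by -0.17 ± 0.18 (SE). In the 6 control libraries Smn1 stood between 30.9 and 51.2 FPKM, so every library carries the Smn1 level of its label. Reads of human SMN2 may align to Smn1, and the settings of the alignment were not in the sources used here.

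No gene passed the threshold in Smn-null cultures: limma called 0% of genes higher and 0% lower at a Benjamini-Hochberg adjusted p under 0.05, and the lowest adjusted p was 0.616. Before adjustment, 1100 genes had a p under 0.05, beside 749 that the absence of any effect would give on average. Of the 1100, 732 were higher with the compound (4.89% of the tested genes) and 368 lower (2.46%). The differences were small. They exceeded 0.5 on the log2 scale, about 1.41-fold, in either direction in 221 genes, or 1.48% of those tested. The median absolute difference within the Smn-null pairs was 0.166, 0.173 and 0.114, against 0.155 to 0.218 between replicates of the same Smn-null group. A single gene's 95% interval, not adjusted for the number of genes, reached a median of 0.297 to each side. Changes below about that size could not be told from 0 in the median gene. Larger differences also missed the adjusted threshold, such as 0.75 for 2810408A11Rik and -1.05 for Gm17071 (adjusted p = 0.616 by limma for each). No individual gene below is therefore called changed, and the text gives where values stood.

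The direction of each gene's difference was counted over the 3 pairs. Some genes repeat 1 direction in 3 of 3 pairs without any effect, and the Smn-null pairs share a GC trend, described below. In Smn-null cultures 2846 genes (19%) were higher and 2584 (17.2%) lower in 3 of 3 pairs, beside 10.6% and 10.9% in control cultures, whose pair 1 stands apart as described below. In mean, 50.4% of the genes were higher and 49.6% lower. Treated and untreated Smn-null libraries did not overlap in 925 higher (6.17%) and 740 lower genes (4.94%). Across the 14982 genes, the differences of pairs 1 and 2 had a Pearson correlation of 0.295, those of pairs 1 and 3 of 0.0969 and those of pairs 2 and 3 of 0.0814. These are correlations across genes, which are not independent replicates. Pairs 1 and 2 resembled each other, and pair 3 had the smallest differences and little resemblance to either.

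**Figure D1:**
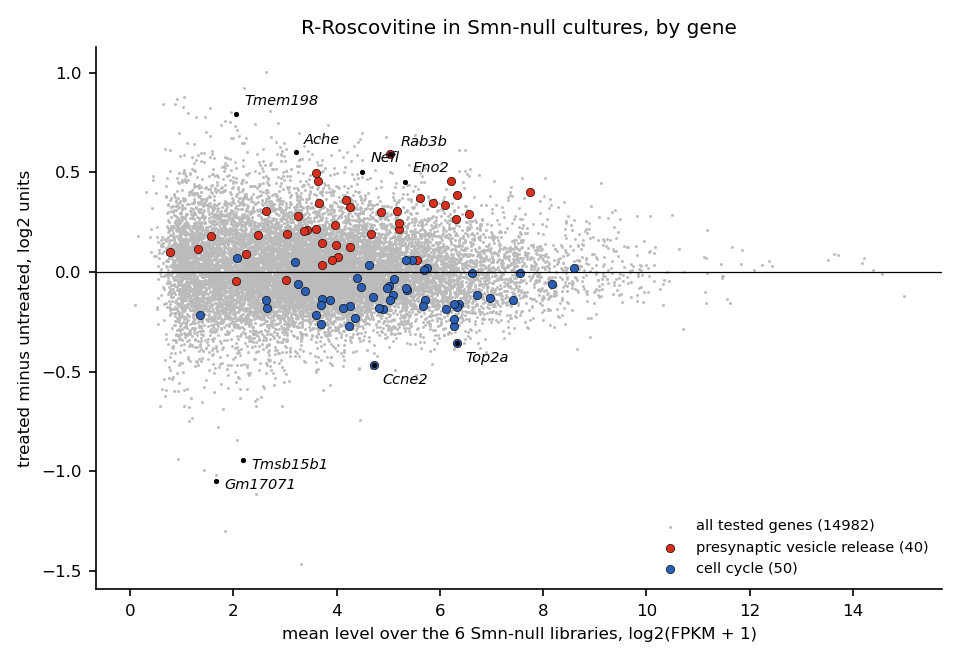
Each point is 1 of the 14982 tested genes in Smn-null cultures: the horizontal axis is its mean level over the 6 libraries as log2(FPKM + 1), the vertical axis the fitted difference, treated minus untreated, in log2 units. Presynaptic vesicle release genes (red) lie mostly above 0 and cell cycle genes (blue) mostly below, within a cloud in which no gene passed the threshold.

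The differences moved with the base composition of the transcripts. In the 3 Smn-null pairs they had Spearman correlations of 0.345, 0.288 and 0.162 with the GC content of the transcript, over 14774 genes with a known transcript. With the genes cut into 10 equal bins of GC content, the median of the mean difference was -0.0968 in the lowest bin and 0.136 in the highest. In control cultures pair 1 stood apart from all other pairs, with a correlation of -0.639 and a median absolute difference of 0.282. Control pairs 2 and 3 had correlations of -0.0138 and 0.248. The part of GC content in single results was not tested, and the gene lists below are also given after removal of the GC trend from every library. After that correction no gene was called (lowest adjusted p = 0.481 by limma), 17% of genes were higher and 16.4% lower in 3 of 3 Smn-null pairs, and 1251 genes had an unadjusted p under 0.05.

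**Figure D2:**
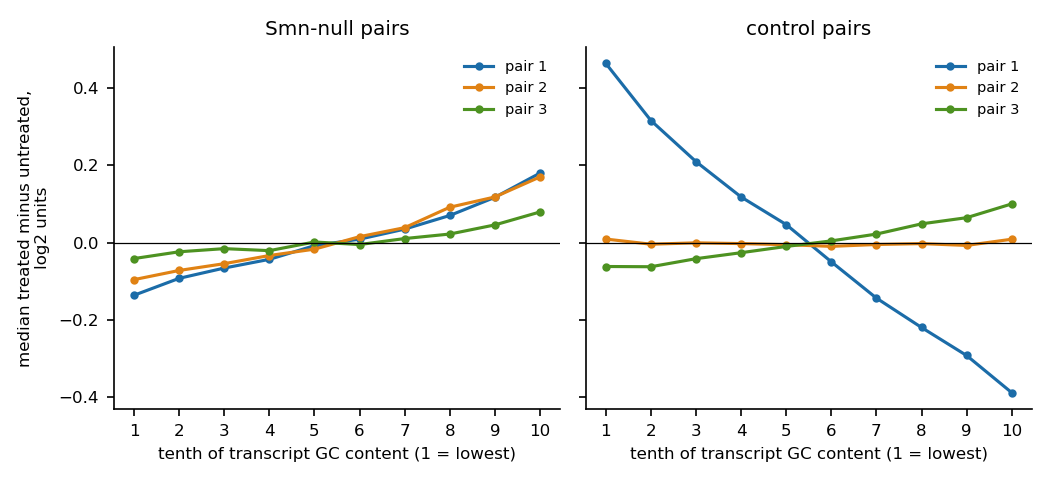
Median difference, treated minus untreated in log2 units, of the genes in each of 10 bins of transcript GC content, from the lowest (1) to the highest (10), for each Smn-null pair (left) and each control pair (right). All 3 Smn-null pairs run upward, from -0.136 to 0.18 in pair 1 and from -0.0412 to 0.0793 in pair 3, while control pair 1 runs downward from 0.464 to -0.388.

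Cyclin-dependent kinases and their activating partners are the compound's direct targets. As a list they did not stand to either side: of 21 members tested, 9 were higher and 12 lower, with a median difference of -0.03 against 0.00206 over all tested genes, and -0.01 after GC correction. Cdk5 read 14.0, 14.3 and 15.6 FPKM without and 15.02, 17.6 and 15.4 FPKM with the compound, and the groups overlapped. Its neuronal activators stood higher. Cdk5r1, which encodes p35, the subunit that switches CDK5 on, had 18.2, 16.1 and 15.5 FPKM untreated and 24.4, 24.1 and 22.7 FPKM treated. Every treated library lay above every untreated one, with a difference of 0.49 ± 0.11 (SE), or 0.35 after GC correction. Cdk5r2, which encodes the related activator p39, had 14.0, 14.0 and 14.0 FPKM untreated and 19.9, 20.9 and 17.1 FPKM treated (0.43 ± 0.12). The difference was 0.24 after GC correction. In control cultures Cdk5r2 differed by 0.13, and by 0.25 after GC correction, and Cdk5r1 by -0.03, and by 0.07 after it.

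Other members of the list stood lower or near 0. Ccne2, cyclin E2, the partner of CDK2 at entry into S phase, had 29.4, 31.8 and 27.9 FPKM untreated and 20.1, 22.2 and 21.3 FPKM treated. The groups did not overlap, and the difference was -0.47 ± 0.12 (SE). Cdk9, the kinase that releases paused RNA polymerase II, had 20.4, 19.1 and 26.6 FPKM untreated and 17.3, 14.9 and 21.1 FPKM treated. It was lower in each of the 3 pairs (-0.29 ± 0.10), though the groups overlapped. Cdk7, of the general transcription factor TFIIH, differed by -0.07 ± 0.10, and Cdk2 by -0.03 ± 0.10. Cdk1, the mitotic kinase, had 131, 138 and 121 FPKM untreated and 120, 103 and 136 FPKM treated, with pair 3 opposite to pairs 1 and 2, and its difference was 0.02 without replicate 2. Of 18 short-lived transcripts that depend on CDK9 for their synthesis, 8 were higher and 10 lower, with a median of -0.06, and -0.07 after GC correction. Mcl1, an anti-apoptotic protein of this kind, had 49.2, 46.0 and 41.3 FPKM untreated and 41.9, 38.4 and 40.7 FPKM treated. Myc, a growth-promoting transcription factor, differed by 0.23 ± 0.10.

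Subunits of voltage-gated calcium channels, the compound's other target, were mostly higher. Of 24 genes on the list, 21 were tested, and 20 of these were higher in mean (50.4% of all genes), 7 in 3 of 3 pairs (19%) and 7 without overlap of the groups (6.17%). The median difference was 0.18, with 0.26, 0.32 and 0.06 in pairs 1, 2 and 3, and 0.19 after GC correction with 18 of 21 higher. Without replicate 2 it was 0.12 and without replicate 3 0.27. In control cultures the median was 0.008 with 12 of 21 higher, and 0.06 with 18 of 21 higher after GC correction. The pore-forming subunits varied among themselves in Smn-null cultures. Cacna1b, the pore of N-type channels, had 7.22, 9.54 and 10.9 FPKM untreated and 14.9, 16.7 and 8.11 FPKM treated. Pairs 1 and 2 were higher and pair 3 lower (0.44 ± 0.22, SE). Cacna1a, the pore of P/Q-type channels, had 13.7, 14.4 and 15.5 FPKM untreated and 16.6, 15.3 and 15.4 FPKM treated, and Cacna1e, the pore of R-type channels, differed by 0.03 ± 0.14 and by -0.07 without replicate 2. Both overlapped between groups.

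The auxiliary subunits held the lowest unadjusted p-values of the channel list. Cacna2d2, an alpha2delta subunit that brings channels to the membrane, had 10.2, 9.01 and 9.52 FPKM untreated and 16.01, 16.3 and 11.2 FPKM treated (0.54 ± 0.15, SE). Cacnb1, a beta subunit, had 11.8, 11.5 and 10.7 FPKM untreated and 15.7, 16.6 and 14.2 FPKM treated (0.42 ± 0.12). Cacng2, which encodes stargazin, a partner of AMPA receptors, differed by 0.33 ± 0.12. In these 3 genes every treated library lay above every untreated one. The single tested member lower in mean was the T-type pore Cacna1h, at -0.02 ± 0.21. Cacna1f, Cacna1s and Cacna2d4 stayed at or below 0.189 FPKM in all 6 Smn-null libraries and were not tested.

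Genes of synaptic vesicle release, the step that calcium entry starts, were higher in nearly every case. All 40 were tested and 38 were higher in mean, 25 in 3 of 3 pairs (19% of all genes) and 10 without overlap (6.17%), while none was lower in 3 of 3 pairs. Their median difference was 0.23, with 0.29, 0.40 and 0.09 in pairs 1, 2 and 3. It was 0.25 after GC correction, with 37 of 40 higher, and from 0.18 without replicate 2 to 0.30 without replicate 3. Of the 40, 17 had an unadjusted p under 0.05 (limma; 4.89% of all genes were higher at that p) and none passed after adjustment over all genes. In control cultures the same genes had a median of 0.10 and 35 of 40 were higher. The median of the difference between genotypes was 0.11, and limma called no gene for that difference (0% higher, 0% lower; lowest adjusted p = 0.813).

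Rab3a, the vesicle GTPase that takes part in docking, had 60.6, 61.6 and 62.4 FPKM in untreated and 87.2, 93.1 and 75.6 FPKM in treated Smn-null libraries. The untreated libraries lay within a narrow range, all below the treated ones, and the difference was 0.46 ± 0.11 (SE). Rab3b, a close relative, had 28.2, 23.3 and 23.9 FPKM untreated and 41.0, 45.6 and 30.0 FPKM treated (0.59 ± 0.13). Unc13a, the priming factor Munc13-1, had 9.24, 8.96 and 8.97 FPKM untreated and 11.8, 14.1 and 13.8 FPKM treated (0.50 ± 0.11). The groups of both genes did not overlap. In control cultures Rab3a read 149, 105 and 77.8 FPKM untreated and 130, 114 and 96.9 FPKM treated, so treated Smn-null libraries lay in or below the range of untreated control libraries. The SNARE proteins of the fusion machinery stood on the same side: the difference was 0.46 ± 0.11 for Stx1a, syntaxin-1A, and 0.34 ± 0.10 for Snap25. Vamp2, synaptobrevin-2, had 172, 182 and 193 FPKM untreated and 240, 301 and 193 FPKM treated, so that its difference came from pairs 1 and 2. The vesicle proteins Syn1, synapsin I, and Syp, synaptophysin, were likewise higher in pairs 1 and 2 and lower in pair 3. The members lower in mean were Sv2b and Unc13b, each at -0.04.

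**Figure D3:**
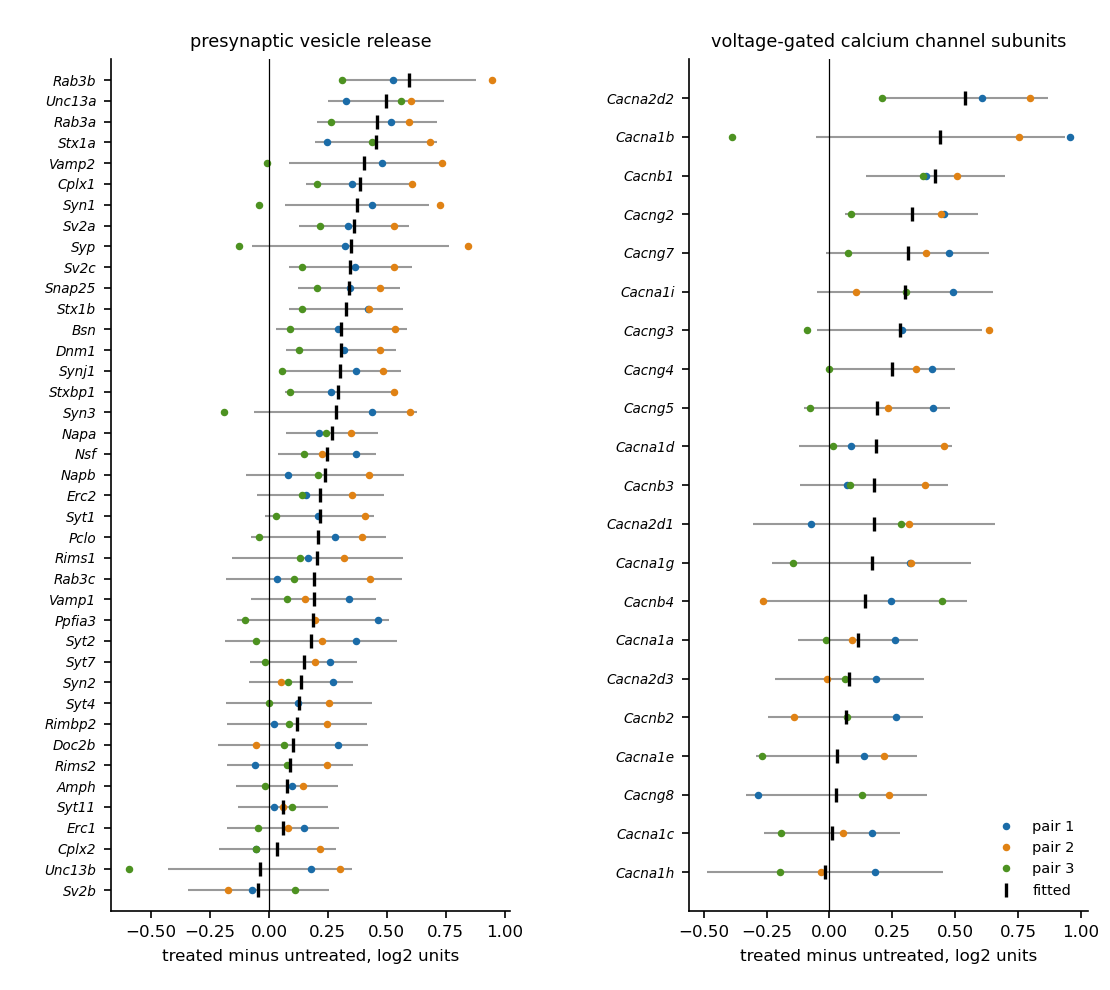
Difference, treated minus untreated in log2 units, of each tested presynaptic gene (left, 40 genes) and each tested calcium channel subunit (right, 21 genes) in Smn-null cultures. Coloured points are the 3 pairs, black ticks the fitted difference and grey lines its 95% interval; 38 of 40 and 20 of 21 ticks lie above 0, with pair 3 usually nearest to it.

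Receptors and ion channels of the neuronal membrane leaned the same way with smaller medians. Of 42 neurotransmitter receptor subunits tested, 38 were higher in mean and 17 in 3 of 3 pairs, with a median difference of 0.17, and 0.20 after GC correction. Pairs 1, 2 and 3 had medians of 0.24, 0.23 and 0.03, and without replicate 2 the list's median was 0.10. Grin2d, an NMDA receptor subunit, had 1.07, 1.12 and 1.54 FPKM untreated and 2.16, 3.21 and 2.46 FPKM treated (0.68 ± 0.17, SE). Glra1, the adult glycine receptor subunit, had 3.06, 3.06 and 3.09 FPKM untreated and 5.24, 3.48 and 4.36 FPKM treated (0.38 ± 0.13). Both were without overlap. In control cultures the receptor median was 0.13, with 36 of 42 higher. Of 37 sodium and potassium channel genes tested, 29 were higher in mean, 14 in 3 of 3 pairs and 4 were lower in 3 of 3 pairs, with a median of 0.12, and 0.16 after GC correction. Without replicate 3 it was 0.23 and without replicate 2 0.09. Kcnh2, the potassium channel ERG1, had 3.72, 4.08 and 3.58 FPKM untreated and 6.18, 5.41 and 6.58 FPKM treated (0.56 ± 0.15). In control cultures the sodium and potassium channel median was 0.08 with 26 of 37 higher, and 0.115 with 28 of 37 higher after GC correction.

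Axonal cytoskeleton and transport genes were higher in 38 of 43 cases, 28 of them in 3 of 3 pairs (19% of all genes) and 11 without overlap (6.17%). The median difference was 0.19, with 0.21, 0.29 and 0.08 in the pairs, and 0.18 after GC correction. Nefl, the light neurofilament subunit that sets the calibre of axons together with its partners, had 20.5, 15.01 and 17.9 FPKM untreated and 27.8, 23.2 and 25.4 FPKM treated. It had the second lowest unadjusted p of all genes that qualified for naming, with a difference of 0.50 ± 0.09 (SE) in Smn-null and 0.06 in control cultures. After GC correction these were 0.52 and 0.05. Nefm, the medium subunit, had 13.9, 7.55 and 11.9 FPKM untreated and 19.4, 12.4 and 13.9 FPKM treated (0.44 ± 0.12), and its groups overlapped. Mapt, which encodes tau, differed by 0.47 ± 0.18 and Tubb3, neuronal beta-tubulin, by 0.34 ± 0.11, both without overlap. Gap43, a growth cone protein, had 135, 110 and 110 FPKM untreated and 179, 148 and 126 FPKM treated (0.34 ± 0.09). Axon guidance genes, in contrast, split evenly, with 21 of 43 higher and a median of -0.01, and -0.03 after GC correction. In control cultures the cytoskeleton and transport list had a median of 0.03 with 29 of 43 higher. After GC correction it was 0.06 with 33 of 43 higher.

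**Figure D4:**
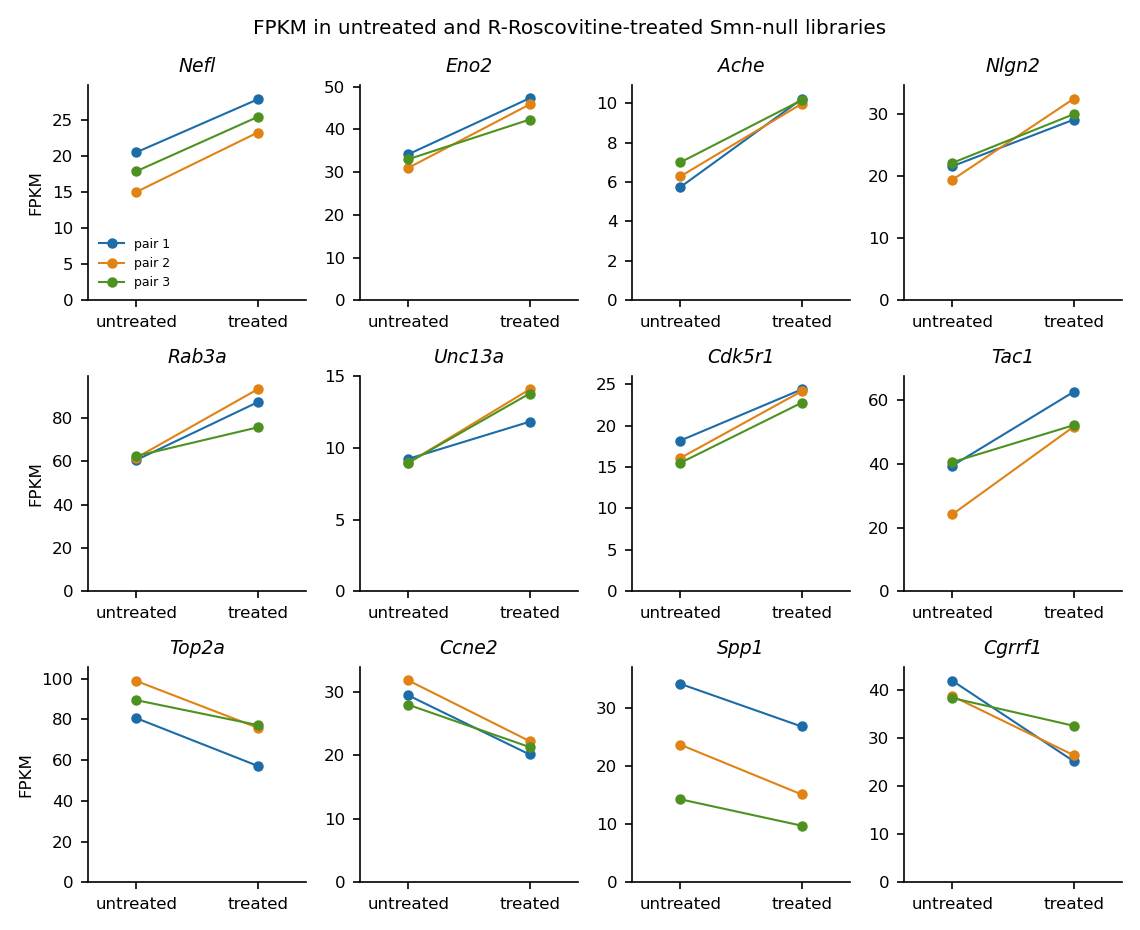
FPKM of 12 named genes in the untreated and treated libraries of each Smn-null pair, joined by lines; every vertical axis starts at 0. Lines run upward for Nefl, Eno2, Ache, Nlgn2, Rab3a, Unc13a, Cdk5r1 and Tac1 and downward for Top2a, Ccne2, Spp1 and Cgrrf1, by less than the distance between pairs in Spp1.

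Markers of cell types were examined beside these neuronal lists, since bulk libraries mix cells, and fewer cells of a type and less RNA per cell cannot be told apart in them. Spinal interneuron markers had the highest median of any list with more than 5 tested members, 0.31, with 0.36, 0.53 and 0.11 in the pairs and 0.26 after GC correction. All 19 tested markers were higher in mean (50.4% of all genes) and 12 of 19 in 3 of 3 pairs (19%). In control cultures the markers' median was 0.17 with 15 of 19 higher, and the pairs had 0.11, 0.13 and 0.11. After GC correction the control median was 0.20 with 17 of 19 higher. Their summed level was 389 to 448 FPKM in untreated and 489 to 640 FPKM in treated Smn-null libraries. Slc32a1, the vesicular transporter for GABA and glycine, had 13.0, 10.98 and 11.6 FPKM untreated and 19.0, 16.9 and 15.4 FPKM treated (0.49 ± 0.14, SE). Sst, somatostatin, had 57.7, 65.8 and 68.2 FPKM untreated and 86.9, 118 and 91.8 FPKM treated (0.61 ± 0.18). Neither gene overlapped between groups. Tac1, the substance P precursor, had 39.4, 24.2 and 40.5 FPKM untreated and 62.5, 51.6 and 52.1 FPKM treated (0.69 ± 0.17), and its control difference was 0.63. Gad1, which makes GABA, had 61.2, 58.3 and 52.8 FPKM untreated and 84.2, 99.3 and 54.5 FPKM treated, with overlap through pair 3. Their part in the presynaptic and channel results was not tested.

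Motoneuron markers were only partly present. Of 22 in the files, 7 stayed below 1 FPKM in all 6 Smn-null libraries, among them the defining genes Chat, Slc5a7, Mnx1, Isl1, Isl2, Lhx3 and Lhx4, and Mnx1 was at 0 in all 6. Of the 15 tested, 12 were higher in mean and 8 in 3 of 3 pairs, with a median of 0.13 (0.14, 0.19 and 0.12 in the pairs), also after GC correction. Without replicate 3 it was 0.23, and without replicate 2 and the GC trend 0.02. Their summed level was 97.2 to 125 FPKM untreated and 110 to 148 FPKM treated. Ache, acetylcholinesterase, which breaks down acetylcholine at the synapse, had 5.75, 6.29 and 6.999 FPKM untreated and 10.2, 9.96 and 10.2 FPKM treated. Its groups lay far apart, with a difference of 0.60 ± 0.12 (SE) in Smn-null and 0.03 in control cultures, and 0.46 and 0.12 after GC correction. Slit3 and Foxp1, the markers with the highest levels, differed by -0.06 ± 0.12 and 0.09 ± 0.11. Endothelial markers (9 of 11), macrophage markers (8 of 13) and erythroid markers (8 of 8) were mostly below 1 FPKM in all 6 Smn-null libraries.

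Cell cycle genes stood opposite to the neuronal lists. Of 50 tested, 42 were lower in mean (49.6% of all genes), 22 in 3 of 3 pairs (17.2%) and 10 without overlap (4.94%), while none was higher in 3 of 3 pairs. The median difference was -0.14, with -0.16, -0.15 and -0.04 in the pairs, and -0.11 after GC correction with 47 of 50 lower. Without replicate 1 it was -0.08 and without replicate 2 -0.09. Top2a, topoisomerase II alpha of dividing cells, had 80.6, 98.9 and 89.5 FPKM untreated and 57.2, 76.0 and 77.3 FPKM treated (-0.36 ± 0.09, SE). Mki67, the proliferation marker Ki-67, had 83.8, 85.8 and 77.8 FPKM untreated and 73.2, 68.9 and 68.0 FPKM treated (-0.23 ± 0.09). Ccnb1, cyclin B1, had 89.5, 84.3 and 77.0 FPKM untreated and 69.7, 63.6 and 73.8 FPKM treated. All 3 genes were without overlap. In control cultures the list's median was -0.06 and 37 of 50 were lower, and Top2a differed by -0.04. Replication-dependent histone genes had a median of -0.02 with 26 of 44 lower, and after GC correction -0.06 with 30 of the 38 that have a GC value lower. Their transcripts largely lack poly(A) tails, and their capture in these libraries was not tested.

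Progenitor and astroglia markers had medians below 0 that were lowest in pair 2. Neural progenitor markers had a median of -0.12 over 20 tested members, of which 15 were lower in mean and 7 in 3 of 3 pairs. Pair 2 had -0.32, against 0.08 and -0.02 in pairs 1 and 3, and without replicate 2 the median was -0.005 with 10 members on each side. After GC correction the median was -0.17 with 19 of 20 lower and pair medians of -0.04, -0.42 and -0.06, and without replicate 2 it was then -0.09 with 13 of 20 lower. Their summed level, mostly Vim, was 3130 to 4120 FPKM untreated and 3180 to 4070 FPKM treated. Fabp7, the fatty acid binding protein of radial glia, had 854, 324 and 416 FPKM untreated and 660, 200 and 439 FPKM treated, and the pairs differed from each other by more than the treatment groups. Astroglia markers had a median of -0.14 over 16 members, and -0.02 without replicate 2. After GC correction these medians were -0.10 and 0.03. Their summed level was 480 to 726 FPKM untreated and 399 to 730 FPKM treated. The libraries of pair 2 held the least of several glial genes in both treatments: Aldoc, an astrocyte enzyme, had 28.8, 6.64 and 27.6 FPKM untreated and 35.1, 7.14 and 28.8 FPKM treated.

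Stress genes differed most in pair 2. Unfolded protein and integrated stress response genes were higher in 30 of 44 cases, 17 in 3 of 3 pairs, with a median of 0.17. The pairs had 0.02, 0.33 and 0.07, and without replicate 2 the median was 0.04 with 24 of 44 higher. After GC correction it was 0.10, and 0.001 without replicate 2. Atf4, the transcription factor of the integrated stress response, had 90.5, 131 and 87.9 FPKM untreated and 101, 236 and 96.6 FPKM treated. Its targets Trib3, with 0.861, 4.38 and 0.543 FPKM untreated and 0.903, 10.8 and 1.16 FPKM treated, and Chac1, with 4.14, 8.18 and 3.78 FPKM untreated and 4.57, 20.99 and 4.005 FPKM treated, were likewise far higher in treated library 2 than in any other Smn-null library. Hsp90b1, a chaperone of the endoplasmic reticulum on the same list, stood lower: it had 532, 525 and 456 FPKM untreated and 439, 412 and 435 FPKM treated (-0.23 ± 0.09, SE), without overlap. Immediate early genes, which neurons induce on activity, were higher in 28 of 40 cases with a median of 0.13, which became 0.01 with 21 of 40 higher after GC correction. Vgf, a secreted neuropeptide precursor, had 12.3, 20.6 and 12.7 FPKM untreated and 16.3, 40.1 and 17.9 FPKM treated (0.59 ± 0.13). Fos, the classical member, had 15.6, 7.53 and 4.63 FPKM untreated and 17.8, 8.40 and 5.36 FPKM treated, higher in 3 of 3 pairs by less than the spread between pairs.

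The remaining pathway lists had medians between -0.10 and 0.08. For 79 ribosomal proteins the median was -0.004, with 38 higher and 41 lower, and -0.02 after GC correction, and for 59 nuclear genes of oxidative phosphorylation it was 0.03 with and without the correction. The median was 0.01 for heat shock genes, 0.003 for glycolysis and hypoxia genes, -0.02 for cholesterol synthesis, -0.05 for p53 targets and -0.06 for apoptosis regulators. After GC correction these were -0.01, -0.03, -0.03, -0.02 and -0.06. The median was -0.07 for the SMN complex and snRNP proteins, -0.06 for SR and hnRNP splicing factors and 0.04 for neurotrophic and cytokine ligands and receptors, and -0.04, -0.02 and -0.01 after correction. Interferon response genes had 0.08, and 0.12 after correction, with 13 of 22 higher in both. TGF-beta and BMP targets had -0.10 with 15 of 21 lower, and -0.09 after correction. Notch genes had -0.10 with 11 of 17 lower, -0.13 after correction, and -0.005 without replicate 2. Collagens and matrix genes had -0.07 with 17 of 27 lower, and after correction -0.14 with 22 of 27 lower and 13 lower in 3 of 3 pairs (16.4% of all genes). The 13 protein genes of mitochondrial DNA had a median of 0.05. Mitochondrial genes are poor in GC, at a median of 37.1%, below the 43% that bounds the lowest GC bin. In control cultures the correction moved their median from 0.16 with 12 of 13 higher to -0.05 with 4 of 13 higher. Control pair 1 then stood at -0.5. In Smn-null cultures the median became 0.16 with 13 of 13 higher after GC correction. Cdkn1a, the p53 target p21 that restrains CDK2, had 105, 160 and 138 FPKM untreated and 110, 181 and 147 FPKM treated (0.11 ± 0.09, SE), with overlap. Among splicing factors the neuronal members Rbfox1 and Elavl3 stood higher, by 0.37 ± 0.10 and 0.34 ± 0.10, both without overlap, and Hnrnpm lower, by -0.33 ± 0.12.

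**Figure D5:**
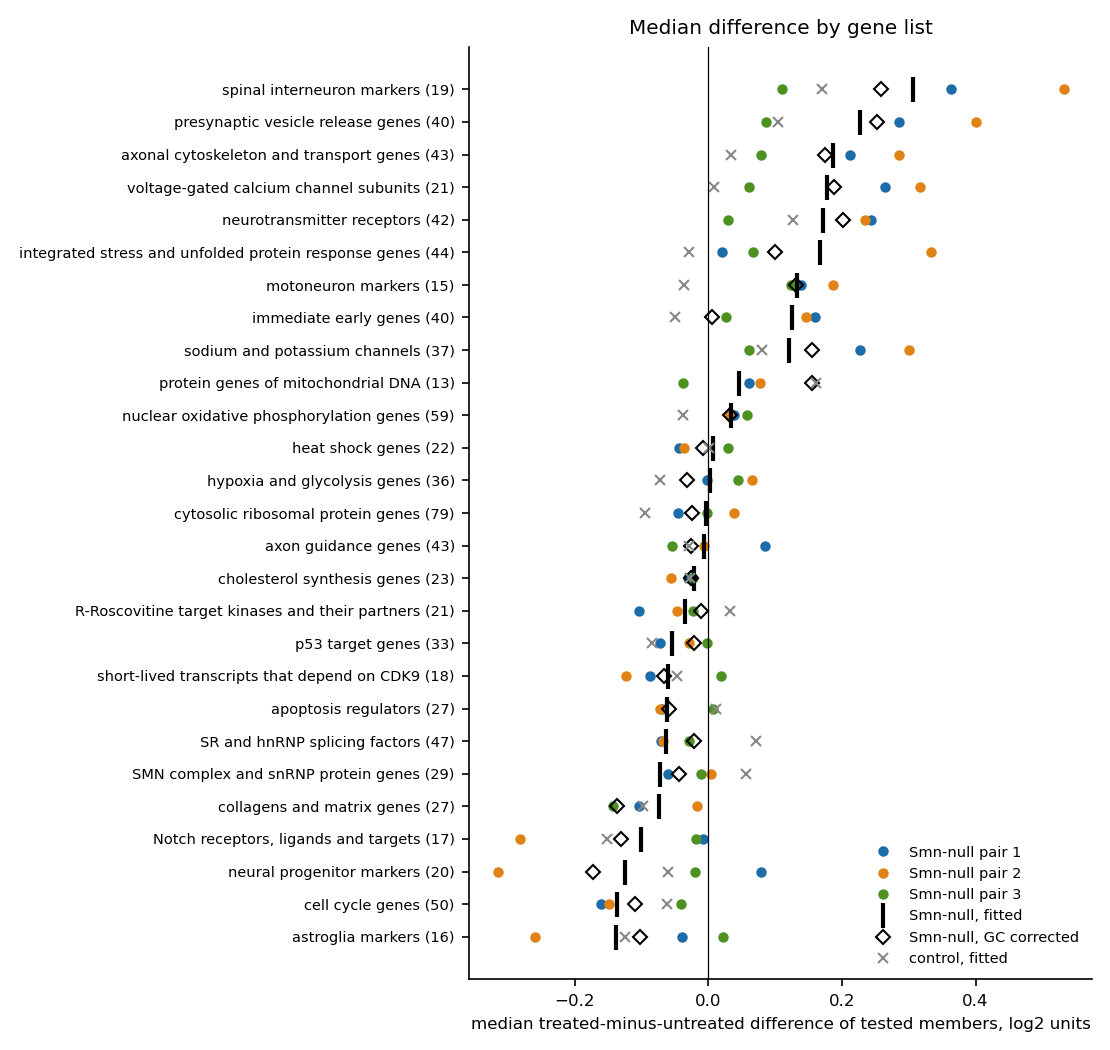
Median difference, treated minus untreated in log2 units, of the tested members of each gene list (their number in brackets): coloured points for the 3 Smn-null pairs, black bars for the Smn-null fit, open diamonds for the Smn-null fit after GC correction and grey crosses for the control fit. The neuronal lists at the top lie above 0 in all 3 Smn-null pairs, cell cycle genes below 0 in all 3, and stress, progenitor and astroglia lists are spread by pair 2.

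Of the genes with a mean of at least 2 FPKM and 1 direction in 3 of 3 pairs, the 10 per direction with the lowest unadjusted p were named; none passed (adjusted p = 0.616 by limma for each). Among the 10 higher genes, Nefl, Eno2, Ache, Nlgn2 and Adcyap1 are well known from neurons. Eno2, neuron-specific enolase of glycolysis (chromosome 6, 124760053 to 124769673, GRCm38), had 34.2, 31.0 and 33.0 FPKM untreated and 47.3, 45.8 and 42.3 FPKM treated (0.45 ± 0.09, SE). Nlgn2, the adhesion protein neuroligin-2 of inhibitory synapses (chromosome 11, 69823122 to 69837784), had 21.6, 19.4 and 22.1 FPKM untreated and 29.1, 32.4 and 29.9 FPKM treated (0.51 ± 0.11). Adcyap1, the neuropeptide PACAP, had 5.22, 4.36 and 2.15 FPKM untreated and 9.90, 9.39 and 2.80 FPKM treated, with overlap through pair 3. Rcan2, a regulator of the phosphatase calcineurin, had 37.2, 38.2 and 35.2 FPKM untreated and 54.5, 64.0 and 43.5 FPKM treated (0.52 ± 0.11). Tmem198, a membrane protein gene on chromosome 1 (75479532 to 75485705), had 2.32, 2.05 and 1.77 FPKM untreated and 3.46, 4.61 and 4.85 FPKM treated (0.80 ± 0.15), and 0.60 after GC correction. The others were Nefl and Ache, described above, Zbtb4, a zinc finger repressor (0.59 ± 0.11), Thoc6, of the THO complex that couples transcription to mRNA export (0.54 ± 0.11), and 2810408A11Rik (0.75 ± 0.12). All 10 except Adcyap1 were without overlap.

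Of the 10 lower genes, Spp1, the secreted protein osteopontin, had 34.2, 23.7 and 14.3 FPKM untreated and 26.9, 15.2 and 9.78 FPKM treated, lower in each pair (-0.49 ± 0.11, SE) while the groups overlapped. Cgrrf1, a ring finger protein, had 42.0, 38.8 and 38.4 FPKM untreated and 25.3, 26.5 and 32.6 FPKM treated (-0.49 ± 0.11), without overlap. Stat6, a transcription factor of cytokine signalling, had 3.07, 4.71 and 2.09 FPKM untreated and 1.43, 2.65 and 0.944 FPKM treated (-0.69 ± 0.15). Zak, a stress-activated kinase of stalled ribosomes, had 11.7, 13.5 and 14.5 FPKM untreated and 9.27, 9.28 and 10.2 FPKM treated (-0.42 ± 0.10). Zcchc9 and Zfp809, a repressor of retroviral sequences, were lower by -0.50 ± 0.12 and -0.42 ± 0.10, both without overlap. Tmsb15b1, a thymosin beta gene that shares its locus with Tmsb15b2 (-0.95 ± 0.18), the antisense features Gm17071 and 2810468N07Rik and the pseudogene Dcdc5 are uncertain: the setting for strand was not in the sources used here, and reads of overlapping or near-identical genes may have been split. The same limit holds for Tmem198, Thoc6, Nefl, Nefm, Rab3a, Unc13a, Ccne2, Cacnb1 and Stat6, each of which overlaps another tested gene.

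Upstream sequence was examined for members of the presynaptic and cell cycle lists, in the 250 bases before the gene start in RefSeq's GRCm38.p6 annotation. The motifs searched, on both strands (capitals on the opposite strand spell the reverse complement, TTCAAA for TTTGAA), were the full cyclic AMP response element TGACGTCA (CRE), the cell cycle homology region TTTGAA (CHR) and the E2F site in the forms TTTGGCGC and TTTCGCGC; none contains another. Of 32851 promoters of all genes, 508 held the CRE (1.55%), 5252 the CHR (16%) and 215 an E2F form (0.654%). Among 39 promoters of presynaptic genes (31 of 40 genes matched) 1 held the CRE (2.56%), that of Syn1. The CHR stood in 6 of these 39 (15.4%) and an E2F form in 0. Among 44 promoters of cell cycle genes (40 of 50 genes matched) 9 held the CHR (20.5%, beside 16% of all) and 4 an E2F form (9.09%). The CRE stood in 2 of these 44 (4.55%), a larger share than among the presynaptic promoters. The following sequences, 5′ to 3′ on the gene's strand with the motifs in capitals, show the presynaptic promoter with the CRE, that of Tmem198, a top gene with a CRE, and those of Top2a and Cdk1, named cell cycle genes that hold the CHR.
Syn1, chrX:20920919-20921168, minus strand: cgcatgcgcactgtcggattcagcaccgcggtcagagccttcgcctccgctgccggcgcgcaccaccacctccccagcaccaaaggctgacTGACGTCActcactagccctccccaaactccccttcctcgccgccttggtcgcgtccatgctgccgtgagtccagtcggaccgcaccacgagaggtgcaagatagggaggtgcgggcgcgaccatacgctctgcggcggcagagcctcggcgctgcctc
Tmem198, chr1:75479282-75479531, plus strand: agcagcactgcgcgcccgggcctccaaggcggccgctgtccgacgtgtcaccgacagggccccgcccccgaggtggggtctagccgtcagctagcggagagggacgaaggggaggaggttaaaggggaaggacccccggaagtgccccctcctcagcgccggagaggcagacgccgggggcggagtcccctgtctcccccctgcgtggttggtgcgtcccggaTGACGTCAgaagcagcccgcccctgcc
Top2a, chr11:99024190-99024439, minus strand: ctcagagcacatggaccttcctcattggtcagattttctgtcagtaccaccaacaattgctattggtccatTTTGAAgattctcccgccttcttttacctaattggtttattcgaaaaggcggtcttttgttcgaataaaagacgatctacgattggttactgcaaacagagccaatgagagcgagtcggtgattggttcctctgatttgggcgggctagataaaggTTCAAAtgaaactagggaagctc
Cdk1, chr10:69352913-69353162, minus strand: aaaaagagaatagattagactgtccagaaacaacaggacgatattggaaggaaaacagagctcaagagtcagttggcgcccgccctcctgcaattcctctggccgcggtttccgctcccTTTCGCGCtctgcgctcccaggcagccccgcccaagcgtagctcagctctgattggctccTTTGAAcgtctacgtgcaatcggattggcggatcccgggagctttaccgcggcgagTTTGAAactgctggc
A match of letters describes the sequence and shows no binding. The CHR letters also stood before Eno2 and Unc13a, which were higher with the compound, and none of the motifs stood before Ccnb1, Ache or Nlgn2. Cdk1, which holds the CHR in 2 places and an E2F form, differed by -0.13 ± 0.12 (SE), and Top2a, which holds the CHR in 2 places and no E2F form, by -0.36 ± 0.09.

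In control cultures no gene was called for the treatment (0% higher and 0% lower; lowest adjusted p = 0.93 by limma). No gene was called for the difference between the genotypes' responses either. Before adjustment 540 genes (3.6%) had a p under 0.05 in control cultures and 721 (4.81%) for the difference. Both counts are below the 749 that the absence of any effect would give on average. Of the 5 genes with the lowest unadjusted p of that difference, Ptpn5 is the best expressed. It encodes STEP, a brain tyrosine phosphatase, and had 13.1, 12.9 and 14.8 FPKM in untreated and 17.1, 25.6 and 21.5 FPKM in treated Smn-null libraries, without overlap. In control cultures it had 38.9, 20.4 and 19.9 FPKM untreated and 25.9, 16.8 and 18.5 FPKM treated. The differences were 0.60 ± 0.13 (SE) in Smn-null and -0.29 in control cultures, and the difference between them had an adjusted p of 0.813 by limma. Treated Smn-null libraries stood in the range of control libraries. The others were A430018G15Rik, Gm16053, Gm26790 and Gm14620, all at low FPKM; Gm16053 and Gm14620 are processed pseudogenes and Gm26790 is a long noncoding RNA that overlaps Zfp507.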

How the data were processed

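The 12 RNA libraries, 3 per genotype and treatment, come from mouse cultures labelled as motoneurons. The labels name the Nucleospin kit for total RNA and a Lexogen kit for mRNA libraries. The deposited values are FPKM per gene, made by the authors. Per the submitters' processing notes, Cufflinks 2.2.1, Trim Galore 0.4.0 and FastQC 0.10.1 were used with GRCm38; the settings for strand and alignment were not in the sources used here. The FPKM of gene identifiers on several rows were summed.

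Values were scaled by median of ratios, and log2(FPKM + 1) was fitted with limma 3.58.1 in R 4.3.3 over all 12 libraries, with a block for each of the 6 pairs and a treatment effect per genotype. Genes needed 1 FPKM in 3 libraries, small and structural RNAs were left out, and p-values were adjusted by Benjamini-Hochberg over all 14982 genes. Same-numbered libraries deviated together from their group means (Smn-null correlations 0.569, 0.526 and 0.45, control 0.237, 0.596 and 0.337), so the replicate numbers pair the samples. The GC correction, a lowess trend per library, was added after seeing the data. Alternatives were other pseudocounts, filters and scalings (none, quantile, common sum without mitochondrial genes), robust moderation, library weights, no replicate block, the libraries of 1 genotype alone, and leaving out each replicate.

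Named genes were Smn1; up to 15 called genes per direction, filled to 10 by lowest unadjusted p (mean of at least 2 FPKM, 1 direction in 3 of 3 pairs); 3 members per pathway list with the lowest p; Cdk5, Cdk1, Cdk2, Cdk7, Cdk9, Cacna1a, Cacna1b, Cacna1e, Cdkn1a, Fos and Mcl1; 5 genes for the genotype difference; and the 2 most abundant markers per marker list. Other named genes were chosen after their values were seen. The comparison and the lists were chosen with earlier results of these data known. The result of 1 gene that this rule names is not reported here.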

Additional observations from a re-analysis of the deposited data

Results flagged for a closer look

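Gene lists whose median differed in direction between the genotypes were looked for, and 2 were found. For R-Roscovitine target kinases and their partners the median was below 0 in each of the 3 Smn-null pairs (-0.10, -0.05 and -0.02) and above 0 in each of the 3 control pairs (0.02, 0.004 and 0.05). The median over its members of the difference between the genotypes' responses was -0.0653. After GC correction neither genotype's pairs kept 1 side: the pair medians were -0.02, 0.02 and -0.03 in Smn-null and -0.0005, 0.01 and 0.04 in control cultures. For motoneuron markers the median was above 0 in each Smn-null pair (0.14, 0.19 and 0.12) and below 0 in each control pair (-0.22, -0.04 and -0.05), and the median of the difference was 0.23. After GC correction control pair 1, which has the steepest GC trend, had 0.10 and the control median was 0.05, so the directions were no longer opposite. Neither difference between genotypes was tested.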

How the results depend on the processing

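The count of called genes in Smn-null cultures was 0 under every alternative run except 2: it was 1 with the libraries of this genotype alone and 1 without control replicate 1, so leaving out single replicates gave 0 to 1. That gene, Gm20716, had 21.7, 11.2 and 7.82 FPKM untreated and 7.06, 3.73 and 2.05 FPKM treated. The control count was 0 except with library weights, where limma called 609; the cause was not tested. With no replicate block the fit, which ignores the pairing, called 0 genes and gave 360 at an unadjusted p under 0.05, against 1100 with the pairing. With library weights that number was 2423.

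Of 2692 named gene values under alternatives, 21 changed sign; the cause was not tested. Without single replicates the difference ran from -0.271 to 0.0156 for Cdk1, -0.0679 to 0.00853 for Cdk2, -0.0661 to 0.176 for Cacna1e, -0.0197 to 0.0809 for Vim, -0.145 to 0.249 for Olig1, -0.247 to 0.0101 for Olig2, -0.0676 to 0.0228 for Pmp22, -0.0307 to 0.105 for Col1a1 and -0.456 to 0.381 for Tyrobp. After GC correction, and after GC and length correction, it changed to -0.00398 and -0.000808 for Vim, -0.0439 and -0.0509 for Ttyh1 and -0.0175 and -0.0223 for Col1a1. With library weights it changed to 0.00978 for Olig1, 0.00724 for Pmp22 and 0.0156 for Tyrobp, and with a filter of 5 FPKM to 0.0023 for Olig1.

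List medians ran from 0.152 to 0.314 for presynaptic genes, 0.12 to 0.27 for calcium channels, 0.174 to 0.437 for interneuron markers and -0.171 to -0.0793 for cell cycle genes, all on 1 side of 0. They ran from 0.0215 to 0.229 for motoneuron markers, 0.00131 to 0.206 for stress genes and -0.245 to -0.00458 for progenitor markers, and for astroglia markers from -0.166 to 0.0279, across 0. Over all lists 61 of 850 medians moved by more than 1 SD of the 3 pairs. With 3 libraries per group, differences below about 0.297 were within the median gene's interval.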

Other observations

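Smooth muscle genes were among the abundant transcripts of the cultures, most of them from Acta2, smooth muscle actin, which other contractile cells also express. Muscle markers summed to 3390, 4260 and 3690 FPKM in untreated and 3030, 3970 and 3590 FPKM in treated Smn-null libraries, lower in each of the 3 pairs with the groups overlapping. Myog, which directs the differentiation of muscle cells, was at 0. Schwann cell markers, mostly Pmp22, Gap43 and Ednrb, of which neurons also express Gap43, summed to 385 to 479 FPKM and fibroblast markers to 36.1 to 72.6 FPKM over the 6 libraries. Sensory neuron markers summed to 60.6, 40.7 and 53.7 FPKM untreated and 85.6, 73.0 and 69.9 FPKM treated, without overlap. The part of these cells in the results was not tested.

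After the values were seen, 3 of the 10 higher genes, Zbtb4, 2810408A11Rik and Nlgn2, were found within 135 kb of chromosome 11 (69765912 to 69900987, GRCm38). Of 8 tested genes in that window, 6 were higher in mean and 5 in 3 of 3 Smn-null pairs (Zbtb4, Fgf11, Nlgn2, Tmem256 and 2810408A11Rik). Their median difference was 0.31, and 0.002 in control cultures, both without GC correction. After GC correction Zbtb4, Nlgn2 and 2810408A11Rik differed by 0.45, 0.38 and 0.70 in Smn-null and by 0.08, -0.06 and 0.08 in control cultures. The window was chosen for these values, so they carry no test.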
